A study of Mus musculus with 46 samples.

Results

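Axon guidance ligands and receptors were followed through the RNA of AgRP and POMC neurons and through the open chromatin of AgRP nuclei. A gene was a member if its symbol in the count table was that of a semaphorin of classes 3 to 7, a plexin, a neuropilin, an ephrin, an Eph receptor, a netrin or netrin-G, an UNC5, Dcc, a Slit or a Robo, and 72 of 31854 genes were. They were 7 secreted and 13 membrane semaphorins, 9 plexins, 2 neuropilins, 3 ephrin-A and 3 ephrin-B ligands, 9 EphA and 5 EphB receptors, 5 netrins, 5 genes of DCC and UNC5, 3 Slits and 4 Robos. The other 4 met the rule by their symbol only, namely Unc50 (a Golgi protein outside the UNC5 receptor family), Unc5cl, Unc5c.2 (which was not found in the annotation) and the opposite-strand transcript Plxna4os1.

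The samples came from male NuTRAP mice on the C57BL/6J background, aged 6 to 11 weeks, in which Cre from the Agrp or the Pomc locus (AgRP-IRES-Cre or POMC-IRES-Cre) switches on a GFP-tagged ribosomal protein and an mCherry-tagged nuclear membrane protein. Every group, controls included, therefore carried the reporter and a Cre allele, and a TRAP library is ribosome-bound RNA drawn with an antibody to GFP from 4 pooled arcuate nuclei. Mice were fed ad libitum or fasted overnight and injected with vehicle, or fasted and injected with leptin, which gave 3 fed, 4 fasted and 4 leptin libraries of AgRP neurons and 2 of each state of POMC neurons. ATAC-seq, which counts reads in open chromatin, had 2 libraries of AgRP-positive nuclei in each of the 3 states, and another 2 of AgRP-positive and 2 of AgRP-negative nuclei sorted from the same pools of mice. AgRP-negative nuclei are all other nuclei of the dissected tissue and are not POMC neurons.

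These families steer growing axons and remain in use at mature synapses. Semaphorins bind plexins, the secreted class 3 proteins mostly through a neuropilin as co-receptor, and plexin signalling collapses the growth cone. Ephrins are anchored in the membrane and bind Eph receptor tyrosine kinases on the neighbouring cell, with signals in both directions. Netrins attract through DCC and repel through UNC5 receptors, netrin-Gs are membrane-anchored partners of the postsynaptic NGL proteins, and Slits repel through Robo receptors. AgRP neurons of the arcuate nucleus drive feeding and are activated by fasting, POMC neurons restrain feeding, and leptin from fat tissue acts on both. Outgrowth of arcuate projections is a known developmental action of leptin.

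RNA libraries held 25581041 to 54511107 counts, ATAC-seq libraries of the 3 states 8263234 to 17190963 and sorted libraries 8685497 to 11177208. The summed CPM (TMM-scaled counts divided by the library total times 1e+06) of 8 AgRP neuron markers was 2243 to 8800 in the 11 AgRP libraries and 388 to 729 in the 6 POMC libraries, and that of 6 POMC neuron markers was 292 to 415 and 1843 to 3292. AgRP replicate 4 and POMC replicate 2 stood apart in every state. In these 6 libraries Slc1a2, a glutamate transporter of astrocytes, was at 20180 to 26971 CPM against 2381 to 6204 in the other 11, and the sum of 8 astrocyte markers, none at 0, was 21385 to 28394 against 3039 to 7142. Most of that sum was Slc1a2 itself. Aqp4 (162 to 262 against 37.8 to 132 CPM), Slc1a3 (445 to 658 against 236 to 432), Gja1 (106 to 152 against 57.8 to 105) and Sox9 (16.1 to 27.1 against 9.37 to 15.99) were also apart. The ranges of Gfap (34.7 to 47.8 and 29.9 to 53.4), Aldoc (255 to 403 and 238 to 363) and Aldh1l1 (14.7 to 21.2 and 11.4 to 21.7) overlapped. The sum of 4 oligodendrocyte precursor markers was also apart (77.6 to 116 against 43.2 to 76.8 CPM). Sums for oligodendrocytes (791 to 1061 against 471 to 792) and microglia (39.8 to 57.3 against 19.5 to 44.1) overlapped in part. Those for tanycytes, endothelial cells and pericytes overlapped as well. Among the guidance genes Sema5a (959 to 1401 against 219 to 586 CPM), Epha6 (92.1 to 138 against 20.5 to 39.9 CPM), Plxna4 (399 to 473 against 225 to 328 CPM) and Unc5c (195 to 272 against 104 to 170 CPM) were separated by the same libraries, and the part of these libraries in the results below was not tested except by leaving those libraries out. Since the libraries are bulk pools, fewer expressing cells and less RNA per cell cannot be told apart.

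The regions below are peaks called between states inside guidance genes whose RNA also differed between states, and they are shown as the DNA behind the accessibility values given further on. They were chosen after their values were seen and are not all such peaks. Each is the central 300 bases of a peak, all within introns, read 5′ to 3′ on the plus strand of GRCm38. Capitals mark matches to 6 short motifs searched on both strands, of which 3 occur in these regions: the AP-1 motif TGACTCA (its reverse complement is TGAGTCA), the STAT motif TTCNNNGAA and the glucocorticoid receptor motif ACANNNTGT.
Epha2 peak higher in fasted, chr4:141301893-141302192: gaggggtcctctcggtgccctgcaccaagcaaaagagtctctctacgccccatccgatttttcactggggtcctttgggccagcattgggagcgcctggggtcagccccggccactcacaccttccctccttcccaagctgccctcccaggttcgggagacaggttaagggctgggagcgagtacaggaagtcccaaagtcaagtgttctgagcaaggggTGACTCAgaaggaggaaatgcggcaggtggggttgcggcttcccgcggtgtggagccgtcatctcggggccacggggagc
Sema3a peak higher in fasted, chr5:13508249-13508548: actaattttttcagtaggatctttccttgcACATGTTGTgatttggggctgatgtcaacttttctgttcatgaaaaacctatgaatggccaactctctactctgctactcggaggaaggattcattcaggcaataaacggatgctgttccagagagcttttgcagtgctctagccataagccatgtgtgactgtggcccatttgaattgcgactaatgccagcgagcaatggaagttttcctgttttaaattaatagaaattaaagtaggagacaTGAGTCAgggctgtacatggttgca
Robo2 peak lower in fasted and higher with leptin, chr16:74096869-74097168: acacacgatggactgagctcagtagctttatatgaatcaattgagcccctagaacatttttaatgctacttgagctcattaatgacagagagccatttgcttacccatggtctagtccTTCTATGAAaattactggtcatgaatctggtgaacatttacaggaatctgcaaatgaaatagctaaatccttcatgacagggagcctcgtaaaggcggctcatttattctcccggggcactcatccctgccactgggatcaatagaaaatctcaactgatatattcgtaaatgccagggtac
Sema3e peak lower in fasted, chr5:14250191-14250490: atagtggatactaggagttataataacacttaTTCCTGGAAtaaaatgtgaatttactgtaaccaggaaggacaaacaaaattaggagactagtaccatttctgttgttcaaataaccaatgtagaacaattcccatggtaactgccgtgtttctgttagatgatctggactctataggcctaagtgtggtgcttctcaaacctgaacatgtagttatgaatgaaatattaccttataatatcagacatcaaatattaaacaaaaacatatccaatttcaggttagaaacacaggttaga
Epha3 peak higher with leptin, chr16:63793948-63794247: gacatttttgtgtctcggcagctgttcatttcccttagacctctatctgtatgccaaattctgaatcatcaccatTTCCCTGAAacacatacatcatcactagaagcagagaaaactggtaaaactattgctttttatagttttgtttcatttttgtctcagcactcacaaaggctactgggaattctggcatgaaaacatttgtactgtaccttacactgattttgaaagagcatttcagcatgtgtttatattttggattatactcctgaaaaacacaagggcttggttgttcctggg
Over the central 300 bases of all 78717 peaks of that length tested between states, AP-1 letters occurred in 22.6%, STAT letters in 12.7% and glucocorticoid receptor letters in 13.1%. The CRE motif TGACGTCA (0.841%), the FoxO motif GTAAACA (4.51%) and the E-box CACGTG (5.05%) had no match in the 5 regions. The promoter peak of Ephb6, lower in fasted nuclei, was searched the same way and is not shown. Its central 300 bases had no match to any of the 6 motifs. The matches are a description of the sequences and nothing more.

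A gene was tested where its mean over the libraries of a model was above 1 CPM, and 67 of the 72 members were. The 5 left out were Ntn3 (0 to 0.377 CPM over all libraries), Plxna4os1 (0 to 0.130), Robo3 (0.109 to 0.450), Unc5c.2 (0 to 0.208) and Unc5cl (0.116 to 0.716). Levels between genes were compared per kilobase (kb) of the gene model. In fed AgRP libraries the median member stood at 5.51 CPM per kb against 7.39 for all genes tested, and 29 members were above the latter. The ephrin-B ligand Efnb3 was highest at 83.4 ± 5.46 CPM per kb (SD, n = 3), and the netrin receptor Unc5d followed at 77.2 ± 6.29. These neighbours in the order differed by about the spread of either. Plxnc1, the receptor of Sema7a, was next at 47.6 ± 4.56, below both by more than their SDs. Efna5 (36.8 ± 4.01), Slit1 (31.4 ± 4.32), Sema6b (28.9 ± 2.59) and Plxna4 (28.03 ± 5.58) followed with overlapping spreads, as did Sema5a at 31.2 ± 22.3. The means of Plxna4 and Sema5a include the high value of replicate 4. The best expressed Eph receptors were Ephb6 (17.3 ± 1.61) and Epha4 (11.9 ± 1.39), and Unc5a (16.3 ± 1.48) and Slit2 (6.14 ± 1.60) stood second among netrin genes and among Slits and Robos. In fed POMC libraries Efnb3 was at 79.3 ± 5.48 (n = 2), Slit1 at 66.5 ± 4.31, Plxnc1 at 56.7 ± 2.00 and Unc5d at 56.3 ± 14.1 CPM per kb.

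**Figure D1:**
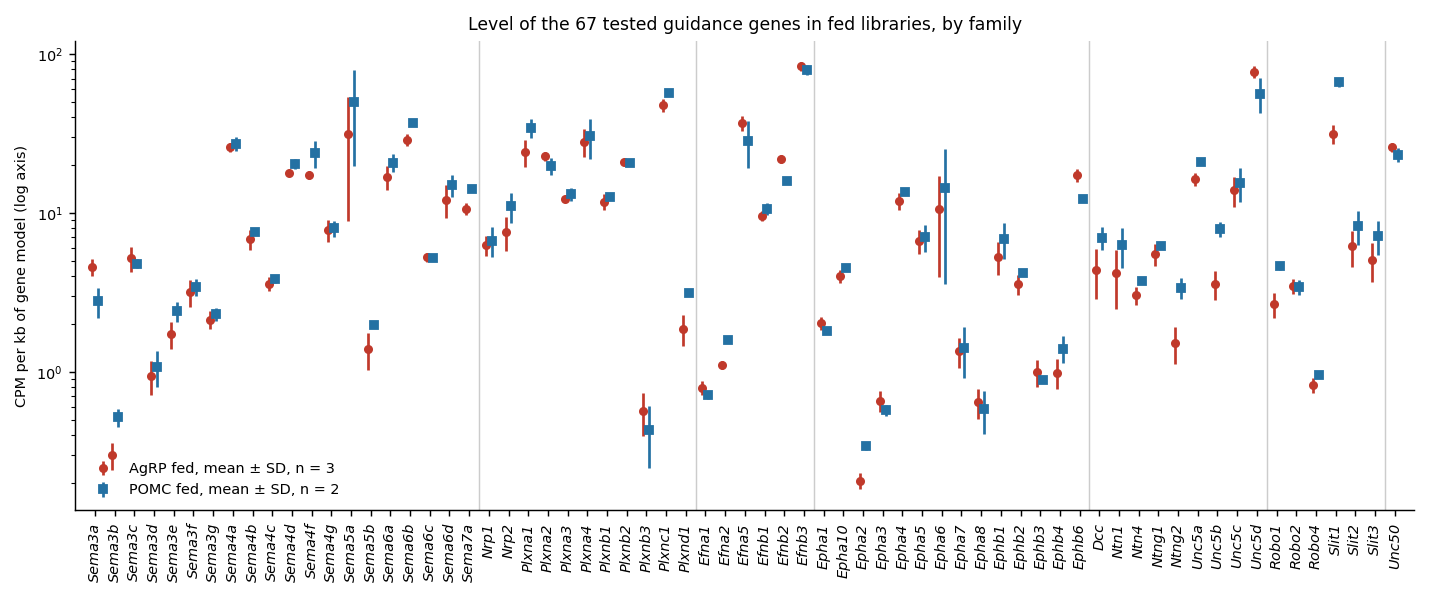
Level of the 67 tested guidance genes in fed AgRP (circles, n = 3) and fed POMC (squares, n = 2) libraries, as mean ± SD in CPM per kb of gene model on a log axis, with vertical lines between families. Levels run from 0.206 CPM per kb for Epha2 to 83.4 for Efnb3 in AgRP libraries, and the wide bars of Sema5a and Epha6 come from the libraries with high Slc1a2.

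Fasting changed 5 of the 67 guidance genes in AgRP neurons. The secreted repellent Sema3a, the ephrin ligand Efnb2 and the receptor Epha2 were higher in fasted libraries, and the ligand Efnb3 and the plexin Plxna3 were lower. The test was edgeR's quasi-likelihood one, and a gene was called where the FDR (Benjamini-Hochberg over all genes) was below 0.05 and the size of the log2 fold change exceeded 0.5. Of all 13401 genes 2.82% were called higher and 1.07% lower, or 3.89% in all, against 7.46% of members. The median log2 fold change of members was -0.14, with 22 of 67 above 0, against 0.02 for all genes. By family, calls fell on 1 of 20 semaphorins, 1 of 11 plexins and neuropilins, 2 of 6 ephrins and 1 of 14 Eph receptors, and none of the 9 genes of netrins, DCC and UNC5 or of the 6 Slits and Robos passed in this test.

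Among ligands, Efnb2 (chr8:8617434-8661242, minus strand) was at 100, 92.2 and 90.2 CPM in the fed libraries of replicates 1, 3 and 4 and at 161, 129, 151 and 143 in the fasted ones. All fasted libraries lay above all fed ones, and the difference was 0.64 ± 0.09 on the log2 scale (± SE throughout, FDR = 0.00259). Efnb2 encodes a transmembrane ligand of EphB receptors and of Epha4. Its relative Efnb3 (chr11:69554092-69560205, minus strand) went the other way, from 250, 270 and 285 CPM to 159, 148, 154 and 222. The groups did not overlap, and the log2 fold change was -0.64 ± 0.16 (FDR = 0.0468). That call was lost in 6 of 7 fits with 1 library left out, with an FDR of up to 0.147, and was kept only without fasted replicate 4, whose value of 222 is the highest of its group. Without the high-Slc1a2 libraries the log2 fold change of Efnb3 was -0.77 (FDR = 0.00233).

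Sema3a (chr5:13125414-13602565, plus strand), which repels axons through Nrp1 and A-type plexins, was at 45.6, 45.7 and 36.6 CPM in fed and 83.3, 55.4, 80.1 and 67.7 CPM in fasted libraries. Fasted values were all higher, by 0.76 ± 0.17 on the log2 scale (FDR = 0.0275), and the call was lost in 5 of 7 fits that left out a library (fasted 1 or 3, or any fed one), with an FDR of up to 0.141. The Sema3a relative Sema3e fell from 15.5, 13.4 and 10.4 CPM to 7.92, 8.05, 7.30 and 9.96 only where the replicate number was kept as a block. Blocking was done because libraries with the same number deviated together in every pair of AgRP groups, and Sema3e then had a log2 fold change of -0.63 (FDR = 0.0109), against -0.65 (FDR = 0.0537) without the block.

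Among receptors, Epha2 (chr4:141301240-141329384, plus strand), an ephrin-A receptor, had the largest change of all members. It was at 0.914, 0.739 and 0.776 CPM in fed and 4.17, 2.64, 3.31 and 1.98 CPM in fasted libraries. The groups were separate, with a log2 fold change of 1.90 ± 0.26 (FDR = 0.00225), and no library left out ended the call. Its fed level is under 1 CPM, so that Epha2 passed the filter through the fasted and leptin libraries, and it remained the lowest tested member in fed AgRP neurons per kb. Plxna3 (chrX:74329066-74344689, plus strand), a plexin-A that pairs with neuropilins, fell from 89.7, 87.7 and 82.3 CPM to 65.2, 51.0, 57.9 and 61.8. No fasted library reached a fed one, and the log2 fold change was -0.54 ± 0.08 (FDR = 0.00402). Without fasted replicate 2 it was -0.48, inside the fold threshold.

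With the replicate block the calls became 4 higher and 4 lower, while 4.4% of all genes were higher and 2.54% lower. The block added, beside Sema3e, the netrin-G1 gene Ntng1 and the Slit receptor Robo2. Ntng1 (chr3:109780040-110144011, minus strand) was at 45.2, 33.5 and 37.1 CPM in fed and 58.9, 70.2, 52.4 and 47.7 CPM in fasted libraries, 0.53 higher with the block (FDR = 0.00307) and 0.58 without (FDR = 0.0555). Robo2 (chr16:73891839-74411825, minus strand) was at 46.9, 38.8 and 48.1 CPM in fed and 26.6, 38.5, 22.3 and 25.3 CPM in fasted libraries, -0.75 with the block (FDR = 0.000545) and -0.65 without (FDR = 0.0589). For both genes the groups did not overlap, although fasted replicate 2 of Robo2 lay within 1 CPM of the lowest fed library. Without the high-Slc1a2 libraries 4 members were higher, with Robo4 added (0.92), and 4 were lower, with Sema3e (-0.91) and Plxnc1 (-0.55) added. In that fit 3.01% of all genes were higher and 2.27% lower.

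**Figure D2:**
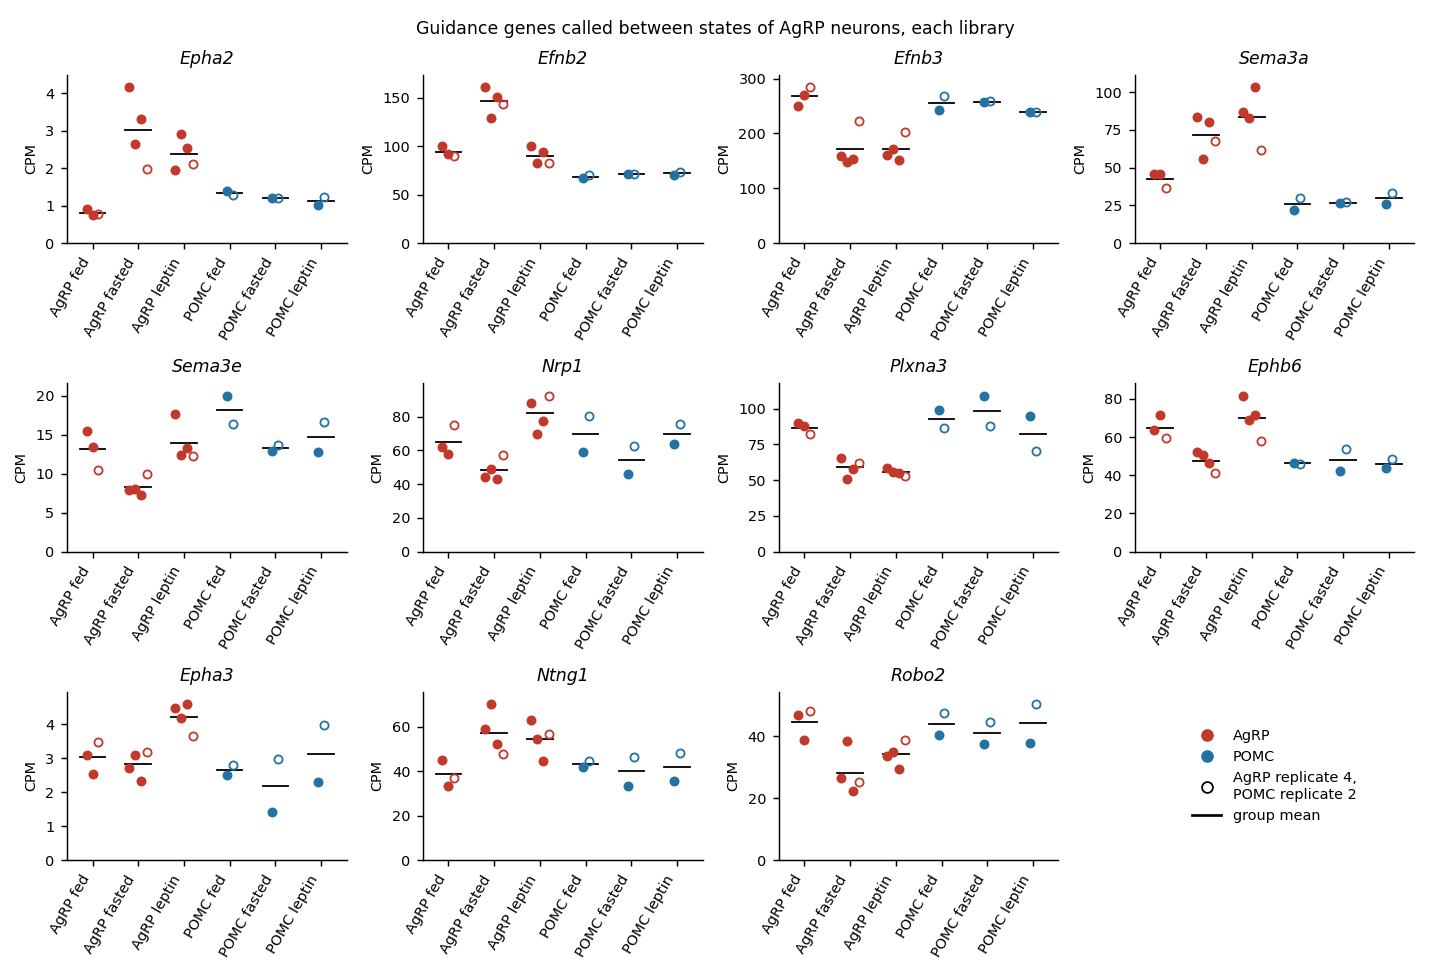
CPM in each RNA library (points) of the 11 guidance genes called between states of AgRP neurons, with or without the replicate block, and group means (lines). Open points are AgRP replicate 4 and POMC replicate 2, the libraries high in Slc1a2. Efnb2 sits at 129 to 161 CPM in fasted AgRP libraries and at 67.03 to 100 CPM in all others, and Epha2 rises from under 1 CPM in fed AgRP libraries, while POMC libraries of 3 states lie close together for both.

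Leptin given to fasted mice changed 4 of the 67 genes. The co-receptor Nrp1, the ligand Sema3e and the receptor Ephb6 were higher with leptin than in the fasted state, and Efnb2 was lower. Over all genes 1.19% were higher and 0.634% lower, in all 1.83% against 5.97% of members, and the median log2 fold change was 0.05 for members and -0.01 for all genes. The leptin and the fasting comparison use the same fasted libraries, so that opposite signs of a gene in both are not separate observations. Calls fell on 1 of 20 semaphorins, 1 of 11 plexins and neuropilins, 1 of 6 ephrins and 1 of 14 Eph receptors.

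Efnb2 stood at 99.9, 82.3, 93.8 and 82.8 CPM with leptin against 129 to 161 CPM in fasted libraries. The ranges were separate, with a log2 fold change of -0.71 ± 0.08 (FDR = 0.00104) that stayed called whichever library was left out. Sema3e, which signals through Plxnd1 without a neuropilin, stood at 17.7, 12.4, 13.3 and 12.3 CPM with leptin, all above the fasted 7.30 to 9.96 CPM. Its log2 fold change was 0.74 ± 0.16 (FDR = 0.0375), and the call was lost in 6 of 8 fits with a library left out, with an FDR of up to 0.128.

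Nrp1 (chr8:128358604-128503363, plus strand) was at 44.4, 49.1, 43.3 and 57.4 CPM in fasted and 88.1, 70.0, 77.4 and 92.5 CPM in leptin libraries, against 62.0, 57.9 and 75.3 CPM in fed ones. Leptin libraries lay above all fasted ones, by 0.75 ± 0.14 (FDR = 0.0138), and the FDR rose to 0.0558 or 0.0508 without fasted replicate 1 or leptin replicate 1. Ephb6 (chr6:41605482-41620509, plus strand), an Eph receptor that lacks kinase activity, was at 52.0, 50.6, 46.3 and 41.3 CPM in fasted and 81.7, 69.2, 71.5 and 57.7 CPM in leptin libraries. The lowest leptin library exceeded the highest fasted one, with a log2 fold change of 0.56 ± 0.10 (FDR = 0.0159), and 3 of 8 left-out libraries ended the call. In the fasting comparison neither was called, with -0.44 for Ephb6 (FDR = 0.0425, but inside the fold threshold) and -0.41 for Nrp1 (FDR = 0.142).

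With the replicate block Epha3, another ephrin-A receptor, was added, and 1.81% of all genes were higher and 1.1% lower. Epha3 was at 2.72, 3.08, 2.33 and 3.19 CPM in fasted and 4.47, 4.18, 4.59 and 3.65 CPM in leptin libraries, which did not overlap. Its log2 fold change was 0.60 with the block (FDR = 0.0203) and 0.58 without (FDR = 0.0815). Of the genes that fasting changed, Epha2 (-0.33, FDR = 0.879), Sema3a (0.23, FDR = 0.923), Plxna3 (-0.08, FDR = 1.00) and Efnb3 (0.01, FDR = 1.00) had leptin libraries that overlapped the fasted ones. Without the high-Slc1a2 libraries 6 members were higher with leptin, with Sema6d (0.51), Nrp2 (0.53) and Epha3 (0.69) added, and 1 was lower, with 1.75% of all genes higher and 0.723% lower.

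**Figure D3:**
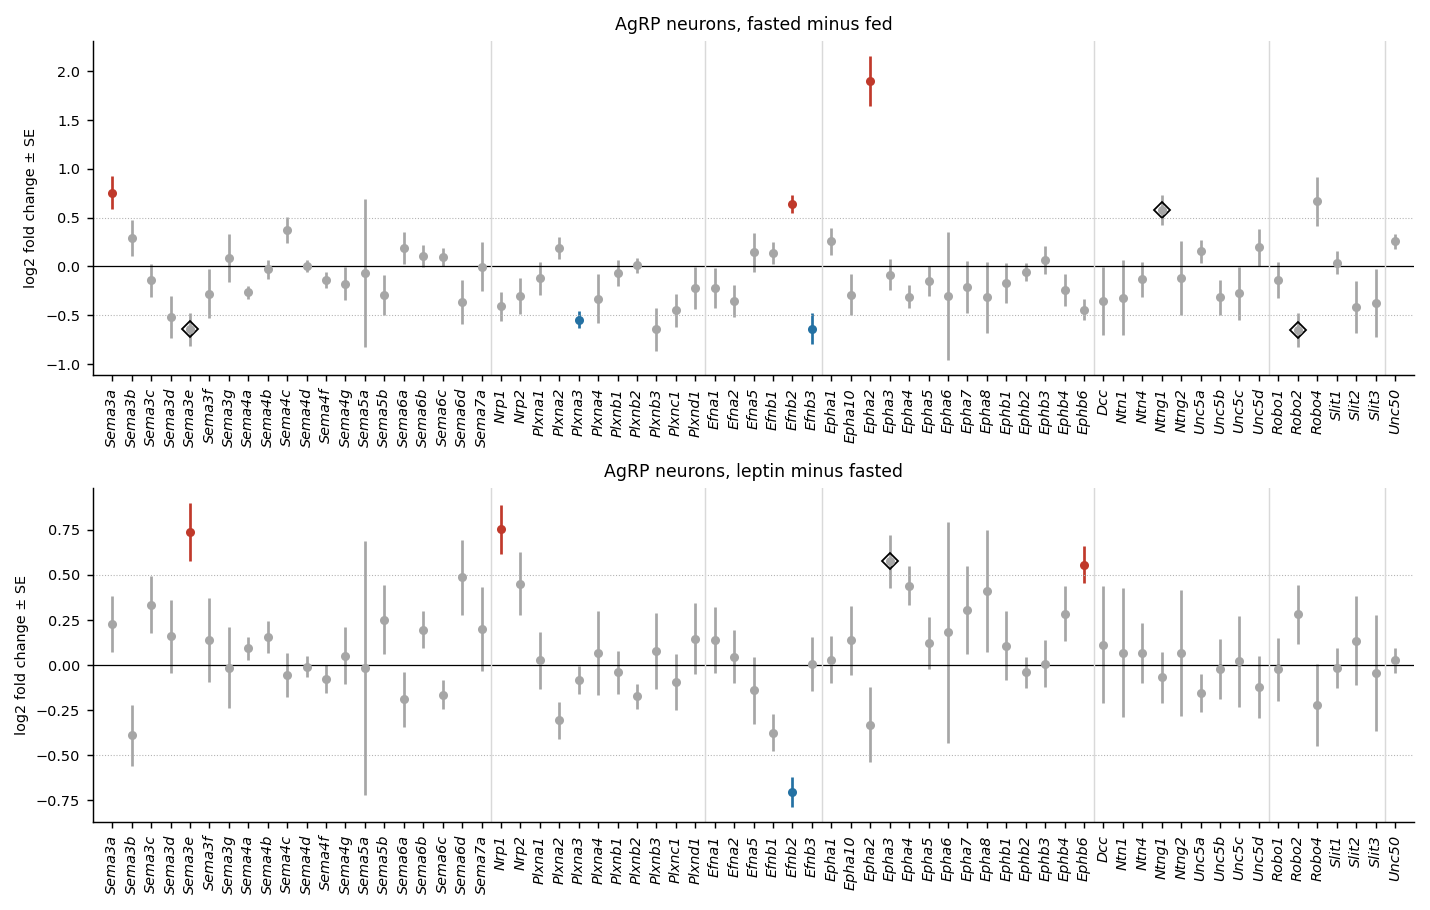
Log2 fold change ± SE of the 67 tested guidance genes in AgRP neurons, fasted minus fed (upper) and leptin minus fasted (lower). Red and blue are called higher and lower, grey not called, diamonds mark genes called only with the replicate block, and dotted lines mark a log2 fold change of 0.5. Epha2 at 1.90 stands far above the rest in fasting, and Efnb2 lies at 0.64 in fasting and -0.71 with leptin.

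In POMC neurons no guidance gene was called between states in the unblocked fit, nor was any other gene, 0% of 13412 for fasted minus fed and 0% for leptin minus fasted. With 2 libraries a state, the median SE of a member's log2 fold change was 0.204. At an unadjusted p under 0.05 the edgeR test had 1 member and 282 genes for fasting, and 0 members and 151 genes for leptin. The member was Unc5b, with 53.3 and 45.6 CPM in fed and 34.7 and 35.0 CPM in fasted POMC libraries, a log2 fold change of -0.50. DESeq2 called no member in either comparison. With the replicate block, which has 2 numbers in this line, no member was called either, while 0.0224% of all genes were for fasting and 0.0596% for leptin. An unadjusted p under 0.05 by edgeR was then reached by 14 and 12 of the 67 members, and by 1977 and 1022 of all 13412 genes. Efnb2 was at 67.03 to 73.8 CPM over all 6 POMC libraries, with log2 fold changes of 0.06 ± 0.11 for fasting and 0.00 ± 0.11 for leptin. Epha2 was at 1.02 to 1.39 CPM (-0.15 ± 0.26 for fasting), Plxna3 at 70.6 to 109 CPM (0.09 ± 0.20) and Sema3a at 22.0 to 33.3 CPM (0.06 ± 0.20). None of these 4 genes was called in POMC neurons, at this depth of replication.

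Whether the responses of the 2 lines differed was tested as an interaction in a model of all 17 libraries. No member passed for fasting or for leptin, where 0.164% and 0.0819% of 13435 genes did. At an unadjusted p under 0.05 by edgeR were 8 and 4 of the 67 members, against 1204 and 389 of all genes. Epha2 came closest, with a fasting response 2.04 ± 0.39 higher in AgRP than in POMC neurons on the log2 scale (FDR = 0.0540). DESeq2 called Epha2 for fasting (2.03) and Efnb2 for leptin (-0.70). With the replicate block 9 members differed in their response to fasting and 2 in that to leptin, while 6.22% and 0.759% of all genes did. For fasting the AgRP response was the higher one for Epha2 (2.04), Sema3a (0.73), Ntng1 (0.66) and Efnb2 (0.62) and the lower one for Ephb6 (-0.52), Plxna3 (-0.61), Efnb3 (-0.66), Robo2 (-0.67) and Plxnc1 (-0.76). For leptin these were Ephb6 (0.61) and Efnb2 (-0.72). The block pairs AgRP and POMC libraries within their own line only.

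Between the lines, 18 of the 67 members were called when averaged over the 3 states, of which 3 were higher in AgRP and 15 were higher in POMC neurons. Of all 13435 genes 6.51% were higher and 6.45% lower in AgRP neurons, so that the share of members that were higher (3 of 67) was below the background and the share that were lower (15 of 67) above it. The median log2 fold change was -0.26 for members and -0.02 for all genes. Lower in AgRP neurons were 4 of 6 Slits and Robos, 4 of 11 plexins and neuropilins, 3 of 9 netrin, DCC and UNC5 genes, 3 of 20 semaphorins and 1 of 6 ephrins, and none of the 14 Eph receptors. The line and any difference in handling that went with it cannot be told apart. The fit took all libraries as independent, although those with the same number deviated together within a line, and its FDRs take no account of that. With the libraries summed per number, which leaves 4 AgRP and 2 POMC sums, 2 members were higher (Sema3a and Efnb2) and 7 lower (Slit1, Unc5b, Plxnc1, Plxnd1, Robo1, Efna2 and Sema4f), against 3.61% and 2.76% of all genes. The calls of Epha2, Dcc, Nrp2, Ntng2, Plxna1, Sema3b, Sema3d, Slit2 and Slit3 were lost there, with FDRs between 0.0501 and 0.180.

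Of Slits and Robos, Slit1, Slit2, Slit3 and Robo1 were called lower in AgRP neurons, and Slit2 and Slit3 were among the calls lost with summed libraries. Slit1 ran from 147 to 191 CPM (median 164) in the 11 AgRP libraries and from 291 to 390 (median 348) in the 6 POMC libraries. There was no overlap, and the log2 fold change was -1.07 ± 0.08 (FDR = 3.82e-07). Slit2 (-0.69) and Slit3 (-0.73) overlapped between lines, at 52.1 to 114 against 98.0 to 145 CPM and at 14.3 to 33.4 against 25.4 to 42.1 CPM. Robo1, a receptor of all of them, ran from 22.4 to 37.4 CPM in AgRP and from 37.9 to 58.1 CPM in POMC libraries, -0.76 ± 0.12 (FDR = 0.000316), with no overlap. Robo2 was not called (-0.30).

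Among netrin genes Ntng2, whose product binds the NGL-2 protein, ran from 7.55 to 19.8 CPM (median 9.32) in AgRP and from 22.6 to 28.7 CPM (median 25.8) in POMC libraries. The ranges were apart, at -1.19 ± 0.21 (FDR = 0.000657, or 0.0529 with summed libraries). The repulsive netrin receptor Unc5b ran from 14.9 to 26.5 CPM (median 17.5) in AgRP and from 28.4 to 53.3 CPM (median 34.9) in POMC libraries, -0.98 ± 0.10 (FDR = 6.59e-06), also apart. Dcc, the attractive netrin receptor, was at 34.1 to 85.8 against 64.96 to 139 CPM, which overlapped (-0.85 ± 0.23, FDR = 0.0103), and its call was lost without POMC leptin replicate 2, as Slit3's was without any of the POMC replicate 2 libraries.

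Of semaphorin receptors, Plxnc1 (-0.79, 204 to 370 against 389 to 558 CPM), Plxnd1 (-0.89, 8.52 to 16.005 against 19.4 to 26.2 CPM) and Plxna1 (-0.64, 176 to 266 against 278 to 380 CPM) were lower in AgRP neurons without overlap. The neuropilin Nrp2 was lower (-0.64) with overlapping ranges of 47.0 to 92.4 and 89.4 to 122 CPM. Of semaphorins, Sema4f (-0.53), Sema3b (-0.63) and Sema3d (-0.56) were lower and Sema3a was higher. With 1 of the 17 libraries left out in turn, the call of Sema3d was lost in 4 fits (without AgRP fed replicate 3 or any POMC replicate 2 library), that of Sema4f in 2 (without POMC fed or leptin replicate 1) and that of Sema3b in 1 (without POMC leptin replicate 1). Sema3a ran from 36.6 to 103 CPM (median 67.7) in AgRP and from 22.0 to 33.3 CPM (median 26.9) in POMC libraries, with 1.21 ± 0.13 over the states (FDR = 6.96e-06). In fed libraries only, the values of Sema3a were apart, but its difference of 0.72 was not called (FDR = 0.129). Of ephrins and Eph receptors, Efna2 (-0.73) was lower at 1.60 to 2.51 against 2.96 to 3.49 CPM, Efnb2 (0.60) was higher at 82.3 to 161 against 67.03 to 73.8 CPM, and Epha2 (0.56) was higher on average while its ranges overlapped.

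Epha2 depended on the state. In fed libraries only, its difference was -0.72 (FDR = 0.274), against 0.56 over the 3 states. With those 5 libraries only 2 members were called, Slit1 (-1.08) and Unc5b (-1.15), both lower in AgRP neurons, while 1.06% of all genes were higher and 1.11% lower. Sema3a and Efnb2 (0.46, FDR = 0.102) were higher there but not called. Epha2, Sema3a and Efnb2, the 3 members called higher between lines, were also the 3 called higher with fasting in AgRP neurons. The mean over states includes that response. The line comparison was also run within the libraries low in Slc1a2 (AgRP replicates 1 to 3 against POMC replicate 1), which gave 6 higher and 17 lower, with 7.64% of all genes higher and 8.23% lower. Within those high in it 2 members were higher and 7 lower, with 4.15% and 3.06% of all genes. In the low set Slc1a2 averaged 3050 CPM in AgRP and 5682 CPM in POMC libraries, so that set was not matched in it. In the high set the means were 23789 and 25630 CPM. All 18 called members had the same sign in both sets, 8 passed the FDR and fold thresholds in both, and 12 of the 15 lower ones had an FDR under 0.05 in both. Among the lower ones that did not were Sema3d, in the low-Slc1a2 libraries (-0.28), and Sema3b, in the others (-0.57, FDR = 0.151). Both fits took libraries with the same replicate number as independent. POMC neurons had a single number in each set, and AgRP neurons a single number in the high set. The FDRs and counts of calls in these sets take no account of that.

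**Figure D4:**
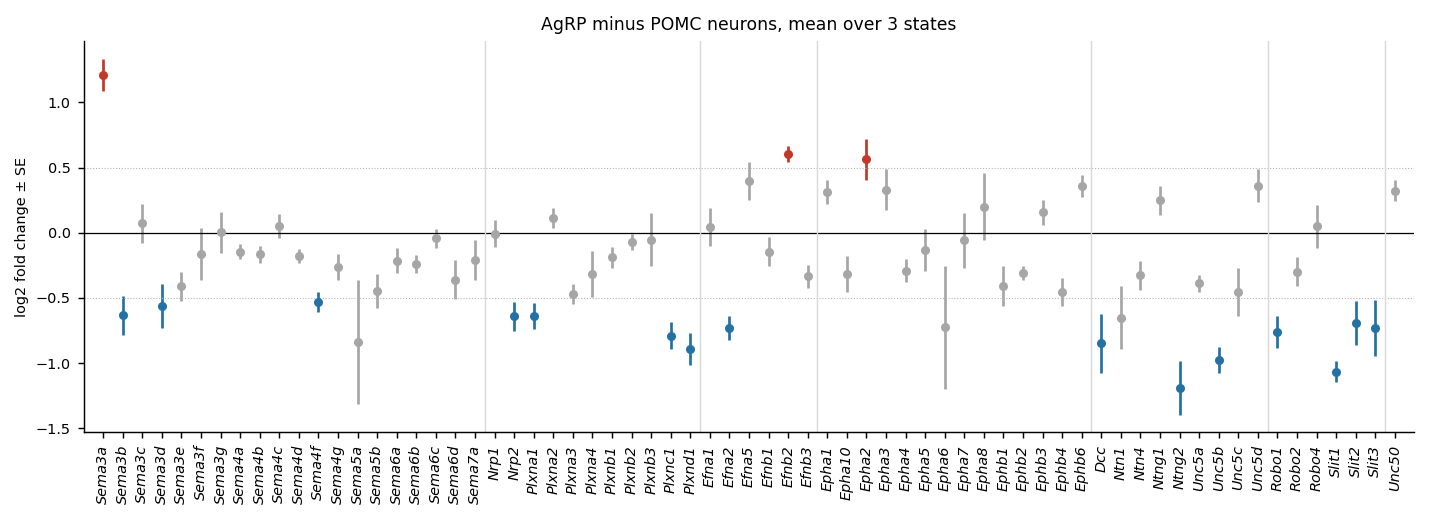
Log2 fold change ± SE of the 67 tested guidance genes, AgRP minus POMC neurons averaged over fed, fasted and leptin libraries. Red is called higher and blue called lower in AgRP neurons, grey not called, and dotted lines mark a log2 fold change of 0.5. Sema3a stands at 1.21 on one side, and Ntng2 at -1.19 and Slit1 at -1.07 lead the 15 genes on the other.

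Co-receptors and cytoplasmic effectors outside these families were taken from a list of 62, of which 60 were in the table. In AgRP neurons fasting raised 1 of 59 tested, the adaptor Nck2 (0.52, FDR = 0.0145), and leptin changed none, with none at an unadjusted p under 0.05 either (edgeR). That is 1.69% called with fasting against 3.89% of all genes, and 0% with leptin against 1.83%. No gene of the list was called between states of POMC neurons. There 1 had an unadjusted p under 0.05 in each comparison by edgeR, against 282 and 151 of all 13412 genes. Between the lines 3 of 58 were higher in AgRP neurons, namely Flrt3 (1.67), a ligand of UNC5 receptors, Nck2 (0.66) and the channel Trpc1 (0.51). The 6 that were lower were the adhesion molecule Nrcam (-0.88), the exchange factor Vav3 (-0.88), Lrrc4 (-0.69) and Lrrc4c (-0.53), which encode the partners of netrin-G2 and netrin-G1, Rtn4r (-0.53) and Dscaml1 (-0.50). Of all genes 6.51% were higher and 6.45% lower between lines, or 13% in all against 15.5% of the list. The median of the list between lines was -0.23, against -0.02 for all genes.

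At promoters, meaning peaks within 1 kb of an annotated start site, 93 peaks of 65 guidance genes were tested between states. Fasting raised 1 and lowered 6. Of all 102237 peaks 18.1% were higher and 8.88% lower in fasted nuclei, and of the 18563 within 1 kb of any start site 4.47% were higher and 4.42% lower. The median log2 fold change was -0.27 for guidance promoters, -0.21 for all start-site peaks and -0.04 for all peaks. The 1 that rose was at Epha2, in the intronic region shown above, 587 bases from a start site. It held 1.51 and 0.658 CPM in fed, 2.52 and 3.16 CPM in fasted and 2.82 and 1.92 CPM in leptin libraries. Fasted lay above fed libraries, with a log2 fold change of 1.53 ± 0.51 (FDR = 0.0302), and 2 of the 4 libraries left out in turn ended the call. The other Epha2 promoter peak, which covers the start site, was not called (0.68 ± 0.42, FDR = 0.227).

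Those that fell were at Sema3g (-1.01), Nrp1 (-0.64), Plxna3 (-0.62), Unc5c (-0.57), Ephb6 (-0.55) and Ephb2 (-0.52). The Plxna3 peak, beside a gene whose RNA fell too, had an FDR of 0.0497 and lost its call without any of the 4 libraries. The Ephb6 peak covered the start site and held 66.98 and 60.5 CPM in fed, 45.9 and 41.1 CPM in fasted and 59.4 and 56.3 CPM in leptin libraries. Fasted libraries were the lowest 2, at -0.55 ± 0.15 (FDR = 0.0109), while the leptin difference of 0.41 ± 0.15 (FDR = 0.165) was not called. The fasting call of the Ephb6 peak was lost in 2 of 4 fits with a library left out, with an FDR of up to 0.124, and so were those at Sema3g, Nrp1 and Unc5c. Leptin raised 2 guidance promoter peaks and lowered none. At an unadjusted p under 0.05, edgeR had 5 of the 93, against 963 of the 18563 start-site peaks. Among all peaks 2.41% were higher and 0.669% lower with leptin, and among start-site peaks 0.512% and 0.167%. The 2 that leptin raised were at the membrane semaphorins Sema6b and Sema6d. Sema6b held 12.2 and 15.02 CPM in fasted and 32.7 and 30.4 CPM in leptin libraries (1.21 ± 0.22, FDR = 0.00295). Sema6d held 14.999 and 15.8 against 31.2 and 35.7 CPM (1.12 ± 0.20, FDR = 0.0034). Both pairs were apart, and each call was lost in 2 of 4 fits with a library left out. Another promoter peak of each gene was not called, at 0.12 ± 0.21 for Sema6b (FDR = 0.877) and 0.01 ± 0.16 for Sema6d (FDR = 0.987). The RNA of neither gene was called with leptin over all libraries.

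Inside gene bodies, beyond the promoter windows, 547 peaks of 60 guidance genes were tested between states. With fasting 86 were higher and 67 lower, 28% of them against 27% of all peaks, so that the guidance genes were near the background. Leptin raised 7 and lowered 3, or 1.83% of them against 3.08% of all peaks. With the replicate block 19 were higher and 9 lower, 5.12% against 5.74% of all peaks. At the genes whose RNA differed, the directions were often mixed, with 4 peaks higher and 2 lower of 16 at Ntng1, 3 higher and 1 lower of 11 at Sema3a and 1 of each among 4 at Efnb2.

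Robo2 and Sema3e had mainly lower peaks with fasting, 7 lower and 1 higher of 13, and 3 lower and none higher of 7. At Robo2 the region shown above (peak chr16:74096837-74097201) held 5.67 and 2.41 CPM in fed, 0.840 and 1.01 CPM in fasted and 3.03 and 4.81 CPM in leptin libraries. The fasted pair was apart from both others, with a log2 fold change of -1.98 ± 0.53 for fasting (FDR = 0.00912) and of 2.10 ± 0.48 for leptin (FDR = 0.0177). It overlapped a peak that sorted AgRP-positive nuclei held at 3.02 and 2.67 CPM and AgRP-negative ones at 0.493 and 0.118 CPM, 3.18 ± 0.83 higher (FDR = 0.000704). Of the 7 lower Robo2 peaks, 5 overlapped one that was higher in AgRP-positive nuclei, and all 3 lower Sema3e peaks did (0.81, 1.45 and 3.78). Of all gene body peaks tested in sorted nuclei, 6 of 8 at Robo2 and 3 of 6 at Sema3e were higher, against 23.9% of all peaks. At Sema3a, where 3 peaks rose and 1 fell with fasting, 4 of 5 were higher too. The promoter peak of Robo2 was lower in AgRP-positive nuclei (-0.83, FDR = 0.000226). The 1 Robo2 peak that rose with fasting overlapped no peak of the sorted nuclei. Whether peaks lowered by fasting overlap such peaks more often than others do was not tested.

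The Sema3e region shown above, at 61.4 and 36.3 CPM in fed, 33.3 and 23.1 CPM in fasted and 37.0 and 36.8 CPM in leptin libraries, had a log2 fold change of -0.76 ± 0.22 for fasting (FDR = 0.0156) and of 0.39 ± 0.22 for leptin (FDR = 0.477). It is the one with 3.78 in sorted nuclei. The Sema3a region went from 0.378 and 0.0731 CPM in fed to 3.81 and 3.22 CPM in fasted libraries, with 4.79 and 5.43 CPM with leptin. It passed the filter of 1 CPM only through the fasted and leptin libraries, and the fed values rest on 3 reads and 1 read. The ratio of its 110 fasted to 4 fed reads per scaled depth was 19.0, with an exact 95% interval of 7.21 to 70.9 that covers counting error only (fitted log2 fold change 4.18, FDR = 0.00028). The Epha3 region was at 1.49 and 0.821 CPM in fasted and 5.14 and 5.60 CPM in leptin libraries, 2.22 ± 0.38 (FDR = 0.00231). The RNA of Sema3a was called higher with fasting, and that of Sema3e lower with fasting and Epha3 higher with leptin was called only with the replicate block.

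**Figure D5:**
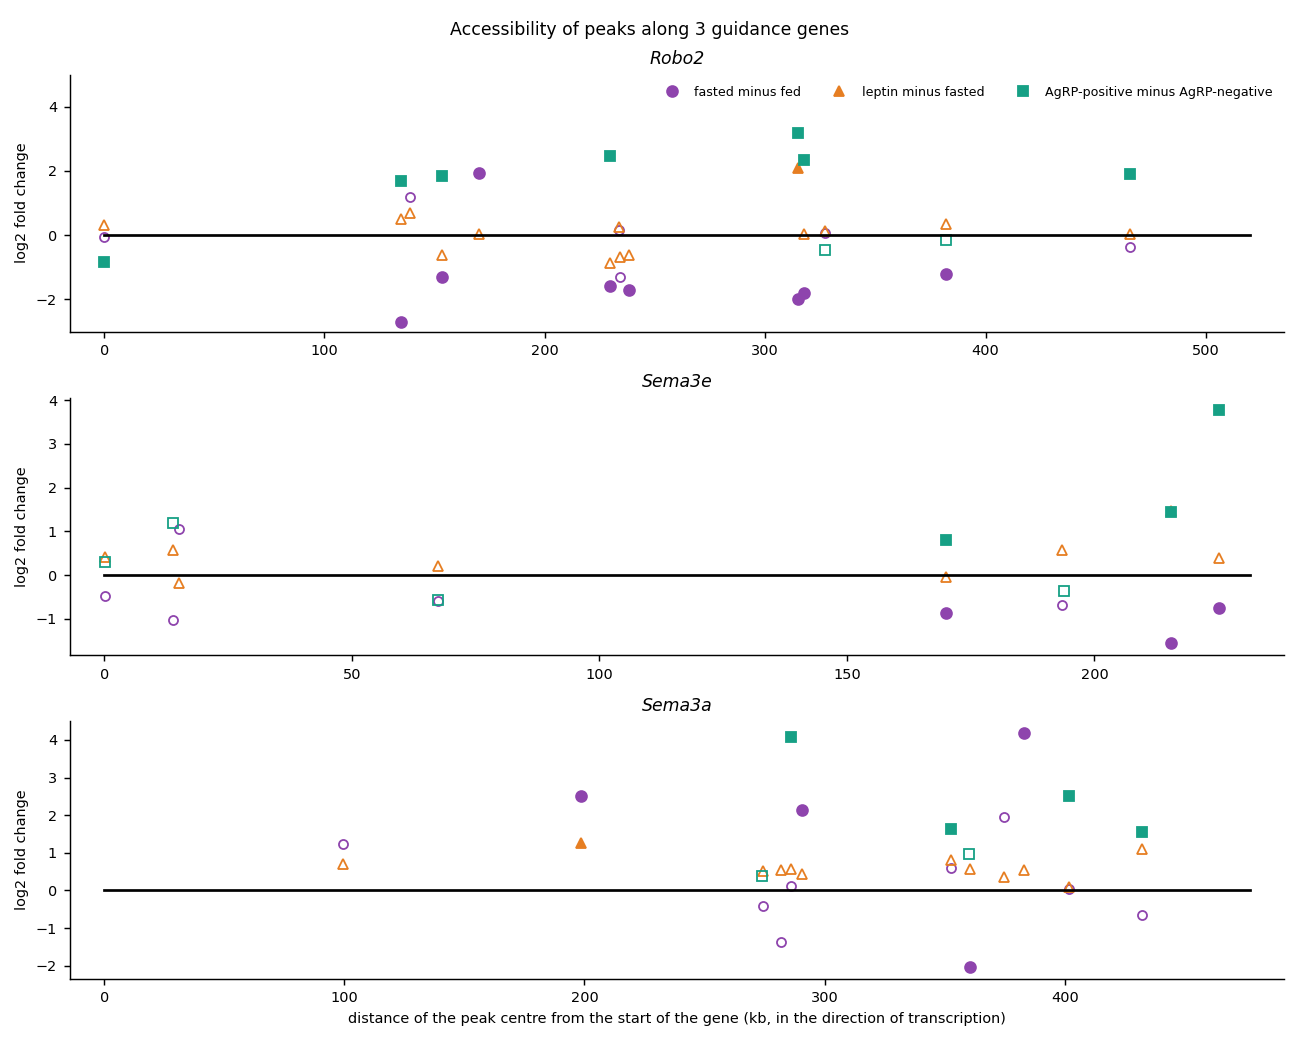
Log2 fold change of each tested peak along Robo2, Sema3e and Sema3a against its distance in kb from the start of the gene in the direction of transcription, for fasted minus fed (circles), leptin minus fasted (triangles) and AgRP-positive minus AgRP-negative nuclei (squares). Filled symbols are called, and the line at 0 spans the gene. At Robo2 and Sema3e the filled circles lie mostly below 0 and the filled squares along the gene body above it, and the highest circle at Sema3a is at 4.18.

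In sorted nuclei 81 promoter peaks of 65 guidance genes were tested, and 24 were lower and none higher in AgRP-positive than in AgRP-negative nuclei. At an unadjusted p under 0.05, edgeR had 45 of them in either direction. Of the 16759 start-site peaks it had 6448, and of all 66560 peaks 33324. DESeq2 called 19 guidance promoters lower and 0 higher. Of all 66560 peaks 23.9% were higher and 15.6% lower, and of the 16759 start-site peaks 5.4% and 14.3%. The median log2 fold change was -0.41 for guidance promoters, -0.19 for start-site peaks and 0.00 for all peaks. The largest were at Sema4a (-2.00), Ntn1 (-1.99), Plxnb3 (-1.64), Ephb3 (-1.58) and Slit3 (-1.56). The netrin gene Ntn1 held 4.43 and 5.57 CPM in negative and 1.96 and 0.583 CPM in positive libraries, and Slit3 held 12.6 and 13.9 against 4.53 and 4.42 CPM, without overlap in either.

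In gene bodies 94 peaks were higher and 54 lower of 339, or 43.7% called against 39.6% of all peaks. Of the 15 genes with less RNA in AgRP than in POMC neurons, 14 had a promoter peak tested in sorted nuclei, and it was lower in AgRP-positive nuclei for 6, namely Slit3, Slit2 (-1.38), Sema3d (-1.33), Dcc (-1.17), Robo1 (-0.92) and Efna2 (-0.60). Of all 81 guidance promoter peaks 29.6% were lower, and of all start-site peaks 14.3%. Whether 6 of 14 exceeds the share of guidance promoters was not tested. Of the 3 genes with more RNA, 2 had such a peak, and neither was called (Sema3a 0.38, Efnb2 0.01). Since the AgRP-negative nuclei hold all other cell types of the tissue, these values and the line difference have different partners of comparison.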

How the data were processed

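TRAP RNA-seq and ATAC-seq were analysed. Per the labels and the study's methods, the authors depleted RNA of rRNA, made Nextera XT libraries (a kit that does not mark strand, so that a gene and an antisense partner cannot be told apart), used HISAT2 for alignment to GRCm38, and assigned reads to genes with featureCounts after editing the annotation to reduce overlaps. ATAC-seq reads were aligned with Bowtie2, peaks called with MACS2 and reads counted per peak with Bedtools. The deposited values used are raw counts, and gene lengths are those of the same table. RNA of whole arcuate nucleus and CUT&RUN were not used here, and 0 columns of samples went unmatched. The deposited tables of log2 CPM were not used.

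Counts were fitted in R 4.3.3 with edgeR 4.0.16 (TMM scaling, quasi-likelihood test, mean above 1 CPM, Benjamini-Hochberg over all features) as a model of the 3 states within AgRP, POMC or ATAC-seq libraries, a model of all 17 RNA libraries for lines and interactions, and a model of sorted nuclei. Calls needed FDR below 0.05 with a log2 fold change beyond 0.5 either way. SEs are those implied by the F statistic. Alternatives were DESeq2 1.42.0, RLE or library size scaling, no filter, a log2 fold change over 1 (peaks), fed libraries only (lines), libraries left out in turn and the replicate number as a block. Libraries low or high in Slc1a2 alone, and libraries summed per replicate number for the line comparison, were added after seeing the data. The scripts were tested on simulated data. Genes were placed with GENCODE M21 (GRCm38), which held 71 of the 72 members, and sequences were read from the RefSeq GRCm38.p6 genome. Named with values were all members called between states with or without the block, those called between lines or in an interaction, the 2 best expressed of each family, the 5 largest promoter changes each way, and Ephb6.

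The labels give samples as separate pools of 4 arcuate nuclei each. Residuals of same-numbered AgRP RNA libraries correlated at 0.537 to 0.814 over 10 pairs, and those of other pairs at -0.645 to 0.641 over 30. The medians were 0.692 and -0.238, so same-numbered libraries deviated together, though the ranges overlapped. Replicate 4 stood apart in every state, and whether the others pair without it was not tested. POMC libraries had 0.726 to 0.770 with only 2 numbers. ATAC-seq libraries of the states had 0.155, 0.165 and -0.00228. Sorted nuclei, which came from the same pools, had only 0.0988. The check therefore cannot tell whether the ATAC-seq libraries of the states are paired. Members, lists and tests were chosen with earlier results of these data known.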

Additional observations from a re-analysis of the deposited data

Results flagged for a closer look

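In groups of 4 AgRP libraries, a library was singled out where its gap to the nearest other exceeded Dixon's 95% limit, which chance alone does in about 1 of 20 groups. Of 66 groups (33 named genes in fasted and in leptin libraries) 10 were singled out, all because of replicate 4, the one high in Slc1a2. In the fasted group these were Sema5a at 1238 CPM (the nearest other at 272), Plxna4 at 399 CPM (247), Plxnc1 at 315 CPM (223), Efnb3 at 222 CPM (159) and Slit3 at 31.2 CPM (16.2). In the leptin group they were Sema5a at 1090 CPM (353), Plxna4 at 399 CPM (258), Slit3 at 29.5 CPM (15.6), Ntng2 at 19.8 CPM (8.81) and, as the only low value, Sema4f at 66.2 CPM (79.6).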

How the results depend on the processing

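Counts of calls moved by over 1.5 times under these settings, and the cause was not tested. With library size scaling, members higher in fasted AgRP neurons went from 3 to 1 (Efnb2 and Sema3a lost) and those higher with leptin from 3 to 1 (Ephb6 and Sema3e lost), lower promoters in fasting went from 6 to 3, and 1 promoter was higher in AgRP-positive nuclei. Over all genes the same scaling took those called higher from 378 to 148 with fasting and from 160 to 107 with leptin. Between lines it moved the median of all genes from -0.02 to 0.06. Their calls there went from 875 higher and 866 lower to 1230 and 655. DESeq2 gave 4 lower members in fasting, 1 higher for the fasting interaction, 1 lower for the leptin interaction and 0 higher promoters in fasting. The replicate block, which pairs libraries by their number, gave 4 lower in fasting, 4 higher and 5 lower for the fasting interaction, and 1 higher and 1 lower for the leptin interaction. In sorted nuclei the block moved lower promoters from 24 to 30, by less than 1.5 times. A log2 fold change over 1 left 1 lower promoter in fasting and 11 in sorted nuclei. Fed libraries alone left 0 higher and 2 lower between lines, and Epha2 reversed to -0.72. In settings chosen after seeing the data, libraries low in Slc1a2 gave 4 lower in fasting, 6 higher with leptin, 6 higher between lines and 1 lower for the fasting interaction (Plxnc1, -1.07), and those high in it, as well as libraries summed per replicate number, 7 lower between lines.

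With each library left out in turn, higher and lower members ranged from 2 to 5 and 1 to 5 for fasting, from 0 (without leptin replicate 1; 1 without fasted replicate 1 or 3) to 3 and at 1 for leptin, at 0 for POMC neurons, from 3 to 4 and 13 to 19 between lines, from 0 (1 without fasted replicate 4) to 1 and at 0 for the fasting interaction and at 0 for the leptin interaction. Promoters ranged from 0 to 1 and 1 to 4 for fasting, 0 to 2 and 0 for leptin, and 0 to 1 and 16 to 26 in sorted nuclei. For single genes, the planned settings, leaving out a library aside, kept 167 values on the same side of the thresholds, brought 21 past them, took 21 out and reversed 1. Those chosen after seeing the data kept 56, brought 3 past and took 19 out. With 2 libraries a state, POMC neurons and ATAC-seq limit what could be called.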
